A study of Mus musculus with 6 samples.

Results

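The genes described here are 55 mouse genes of mitosis and the G2/M phase of the cell cycle, taken from a list of names by a rule that applies no threshold to measured values. All 55 were among the 14481 genes of the deposited counts table, and all 55 passed the filter on low counts, so none is missing from the counts below. Polyadenylated RNA was sequenced at day 3 from wild-type CD8+ T cells, the cytotoxic lymphocytes, which had been sorted before culture. In both groups they were stimulated on plates coated with antibody to CD3 at 1 µg/ml, together with 1 µg/ml of antibody to CD28 in solution. The RPMI medium also held interleukin 2 at 0.1 µg/ml and 10% serum (FBS). At day 1 the cells received conditioned medium (CM) taken from astrospheres that the labels call pSTAT3+ or pSTAT3-, named for the phosphorylated form of STAT3, a transcription factor that is active in that form, and they stayed in it for 2 days. The 2 groups, called STAT3- CM and STAT3+ CM here, had 3 libraries each, and cells without CM were not analysed here. The labels do not say that the replicates were separate mice or cultures, so a p-value here reflects only how these samples scatter, which may be technical.

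Mitotic genes are transcribed in a wave that peaks late in the cell cycle. In resting cells the DREAM complex holds them silent, and in dividing cells B-MYB with the MuvB core, joined by FOXM1, switches them on, largely through the cell cycle genes homology region (CHR) and CCAAT boxes of their promoters. Activated CD8+ T cells divide rapidly, and the RNA of this group is widely used as a gauge of how much of a culture is cycling.

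Many of the promoters hold these elements, and stretches of 6 are shown because they belong to genes whose values are described in detail and carry both kinds of element. RefSeq promoter windows, from 250 bases before to 50 bases after the annotated start on GRCm38.p6, were held for 47 of the 55 genes. Sequences below run 5′ to 3′ on the gene's strand, with capitals marking the CHR (TTTGAA), its variants TTCGAA and TTTAAA, and the CCAAT box, each on either strand, so that TTCAAA and ATTGG are matches on the opposite strand. The Mki67 stretch runs from 200 to 91 bases before the start and the others from 100 bases to 1 base before it.
Mki67, minus strand, chr7:135716470-135716579: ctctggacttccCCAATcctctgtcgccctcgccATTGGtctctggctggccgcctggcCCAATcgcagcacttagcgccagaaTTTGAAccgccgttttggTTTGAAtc
Top2a, minus strand, chr11:99024190-99024289: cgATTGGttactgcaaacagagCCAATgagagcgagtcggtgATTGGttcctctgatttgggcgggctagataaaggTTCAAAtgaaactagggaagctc
Cdk1, minus strand, chr10:69352913-69353012: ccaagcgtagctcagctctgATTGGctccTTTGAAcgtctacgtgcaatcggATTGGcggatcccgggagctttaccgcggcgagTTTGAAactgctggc
Ccnb1, minus strand, chr13:100786487-100786586: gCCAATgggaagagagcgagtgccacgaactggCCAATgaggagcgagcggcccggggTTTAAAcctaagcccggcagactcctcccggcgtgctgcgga
Cdc20, minus strand, chr4:118437344-118437443: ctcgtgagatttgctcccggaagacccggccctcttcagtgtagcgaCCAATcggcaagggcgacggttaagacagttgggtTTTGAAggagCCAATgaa
Kif11, plus strand, chr19:37376282-37376381: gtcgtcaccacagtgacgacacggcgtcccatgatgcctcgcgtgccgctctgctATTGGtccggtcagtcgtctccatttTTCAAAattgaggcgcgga

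The motif TTTGAA was found in the windows of 33 of the 47 genes (70.2%, 95% exact Clopper-Pearson interval 55.1% to 82.7%), against 20.2% of the 27025 genes in the RefSeq promoter table. Any of the 3 CHR forms was found in 40 of 47 (85.1%), against 31.9% of all genes. CCAAT was found in 37 of 47 (78.7%), against 41.1%. A CHR form and CCAAT occurred together for 35 genes, and 25 genes had CCAAT 2 or more times. Within the 100 bases around the start, TTTGAA was present for 61.7% of the mitotic genes and 5.72% of all genes. Ccnb1, as printed, has TTTAAA in place of TTTGAA. Mad2l1, Melk, Nuf2, Nusap1 and Pttg1 had neither a CHR form nor CCAAT in the window, which says only that these letters are not there. Matches are descriptions of the sequence, not evidence of binding, and motifs that shared bases were counted separately. The genes without an entry were Aurkb, Ccna2, Cdc25c, Dlgap5, Foxm1, Incenp, Kif20a and Tpx2.

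Total counts were 43346089 to 53630514 per library. Values are CPM, counts brought to 1 common library total, with TMM, a factor per library that aligns the bulk of genes, applied to that total. Each log2 fold change is the STAT3+ CM level over the STAT3- CM level. Among 10 CD8+ T cell markers, all were measured, and their summed level was 6433 to 9125 CPM in STAT3- CM and 9292 to 10690 in STAT3+ CM. Gzmb alone made up 3755 to 6129 and 6172 to 7211 CPM of that sum. The sum of the other 9 markers, at 2678 to 2996 against 2886 to 3478 CPM, overlapped. Taken singly, 2 of the 10, Gzmb and Prf1, had every STAT3+ CM library above every STAT3- CM library, against 3.78% of all genes. Prf1 stood at 149 to 165 against 174 to 322 CPM (log2 fold change 0.60, unadjusted edgeR p 0.0127, adjusted p 0.989). The Cd8a level was 782 to 937 CPM against 801 to 1064. Of 10 dendritic cell markers 7 were in the table, with a sum of 132 to 185 CPM against 95.3 to 119.9, and Flt3, Clec9a and Xcr1 had no row. Cd74 alone made up 50.7 to 94.2 and 36.1 to 44.7 CPM of that sum. Of the 7, 4 were lower in STAT3+ CM at an unadjusted edgeR p under 0.05, against 2.3% of all genes. For 4 the groups did not overlap, with lower values in STAT3+ CM, against 4.18%. Adjusted, edgeR called 0, and DESeq2 called H2-Aa (adjusted p 0.00435) and Cd74 (0.0124), the latter also called by limma-voom with sample quality weights (0.0499). Of 5 B cell markers only Cd79b had a row, and of 5 erythroid and platelet markers none. Their part in the values of the mitotic genes was not tested. In bulk RNA, fewer cycling cells and less mitotic RNA per cell cannot be told apart.

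No mitotic gene passed the threshold between the media. Over the 55 genes the adjusted p in edgeR's quasi-likelihood test (Benjamini-Hochberg over 14319 genes) was 0.989 to 0.9999, and the background was equally empty, at 0% of all genes called. DESeq2 called 0.335% of all genes and limma-voom with sample quality weights 0.112%, and 0 of the 55 were among them. At an unadjusted edgeR p under 0.05, 1 mitotic gene was higher in STAT3+ CM (Pttg1) and 0 were lower, against 1.34% and 2.3% of all genes. The libraries of the 2 groups did not overlap for 1 gene, again Pttg1 with the higher values in STAT3+ CM, and for 0 with lower values, where 3.78% and 4.18% of all genes did so. As shares of the 55 these counts are near or under the background.

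The sizes were small. Log2 fold changes ran from -0.43 for Mki67 to 0.32 for Pttg1, with a median SE of 0.16. The 95% intervals of all 55 genes lay within a 2-fold difference in either direction, and those of 42 within 1.5-fold. The lowest bound was -0.92, for Aspm. Below 0 were 45 of the 55 (81.8%), with a median of -0.11, while 49.8% of all genes were below 0 and their median was 0.00076. For each of the 55, the ratio of the highest to the lowest library in the wider group was larger than the ratio of the group means. The plot of intervals by role shows how far each gene reaches on both sides of 0.

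**Figure D1:**
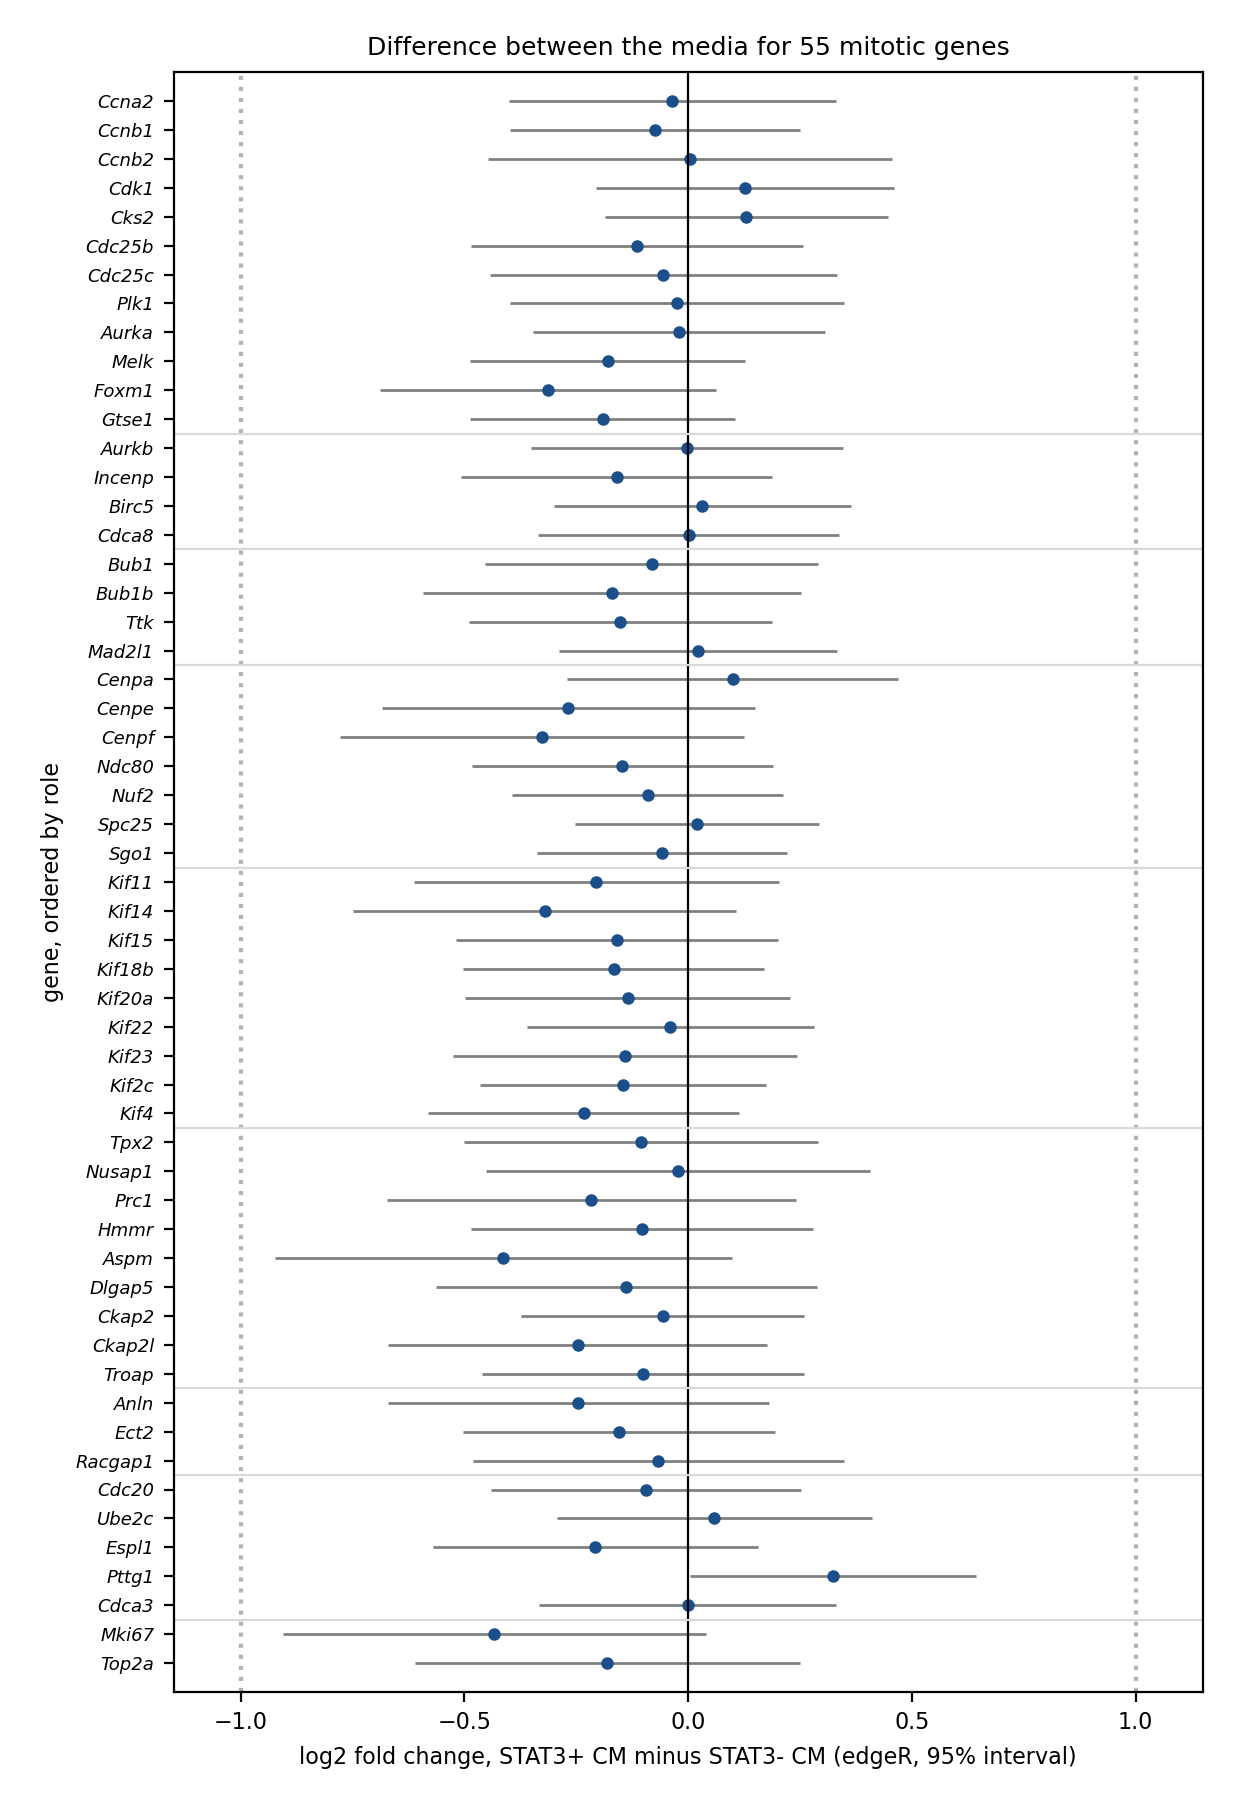
Log2 fold change (x axis, STAT3+ CM minus STAT3- CM) of the 55 mitotic genes, ordered by role and separated by grey lines. Points are edgeR estimates, bars 95% intervals, and dotted lines mark a 2-fold difference. Only the interval of Pttg1 lies on 1 side of 0, and no interval reaches either dotted line.

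The genes that drive entry into mitosis numbered 12. Cdk1, the kinase whose activity starts mitosis, stood at 179, 202 and 146 CPM in STAT3- CM and at 212, 196 and 168 CPM in STAT3+ CM, in the order of replicates 1 to 3. Its partner cyclin B1, encoded by Ccnb1, stood at 166, 197 and 141 CPM in STAT3- CM and at 176, 153 and 150.0 CPM in STAT3+ CM. The STAT3- CM libraries held both the highest and the lowest Ccnb1 level, and the groups overlapped for both genes. For Cdk1 the means were 176 ± 28.0 against 192 ± 22.1 CPM (SD, n = 3 each) and the log2 fold change 0.13 (SE 0.15); for Ccnb1 they were 168 ± 28.1 against 159.6 ± 13.9 CPM (SD, n = 3 each) and -0.074 (SE 0.15). Cks2, a small protein that binds the kinase, stood at 132, 149 and 108 CPM in STAT3- CM and at 144, 152 and 130.4 CPM in STAT3+ CM, with a log2 fold change of 0.13 (SE 0.14). As for Cdk1, its lowest library was STAT3- CM replicate 3.

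The other B-type cyclin, Ccnb2, stood at 92.4, 107 and 105 CPM in STAT3- CM and at 139.6, 89.7 and 75.9 CPM in STAT3+ CM. STAT3+ CM replicate 1 was the highest of the 6 and replicates 2 and 3 of the same medium the lowest, so all STAT3- CM libraries lay between them. The log2 fold change, 0.0037 (SE 0.20), therefore averaged over a group whose libraries differed by up to 1.84-fold. Ccna2, the cyclin of S phase and mitotic entry, had the same highest and lowest library and stood at 258, 302 and 235 CPM in STAT3- CM and at 318, 239 and 219 CPM in STAT3+ CM. Plk1, the kinase that matures centrosomes and helps switch on cyclin B, stood at 106, 133 and 102 CPM in STAT3- CM and at 139, 98.7 and 97.9 CPM in STAT3+ CM, again with STAT3+ CM replicate 1 on top and replicates 2 and 3 below every STAT3- CM library. Its log2 fold change was -0.025 (SE 0.17). Cdc25b and Cdc25c, the phosphatases that remove the inhibitory phosphates from the kinase, followed the same order, with log2 fold changes of -0.11 (SE 0.17) and -0.055 (SE 0.17). The centrosome kinase Aurka had -0.022 (SE 0.15).

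Foxm1, the transcription factor of the group, had the most negative value among the entry genes. It stood at 59.0, 58.1 and 74.5 CPM in STAT3- CM and at 63.2, 42.2 and 48.8 CPM in STAT3+ CM. STAT3- CM replicate 3 was highest, and STAT3+ CM replicates 2 and 3 were below every STAT3- CM library while replicate 1 was within their range. The means were 63.9 ± 9.22 against 51.4 ± 10.8 CPM (SD, n = 3 each), with a log2 fold change of -0.31 (SE 0.17) and an adjusted p of 0.989 by edgeR's quasi-likelihood test. Melk, a kinase abundant in dividing cells, stood at 52.1, 62.6 and 48.8 CPM in STAT3- CM and at 53.6, 46.1 and 44.7 CPM in STAT3+ CM (log2 fold change -0.18, SE 0.14). Gtse1, which restrains p53 in G2, stood at 100.3, 108 and 82.1 CPM in STAT3- CM and at 80.4, 84.2 and 90.0 CPM in STAT3+ CM (log2 fold change -0.19, SE 0.13). Gtse1 was the only one of the 55 for which STAT3+ CM replicate 1 was the lowest library.

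**Figure D2:**
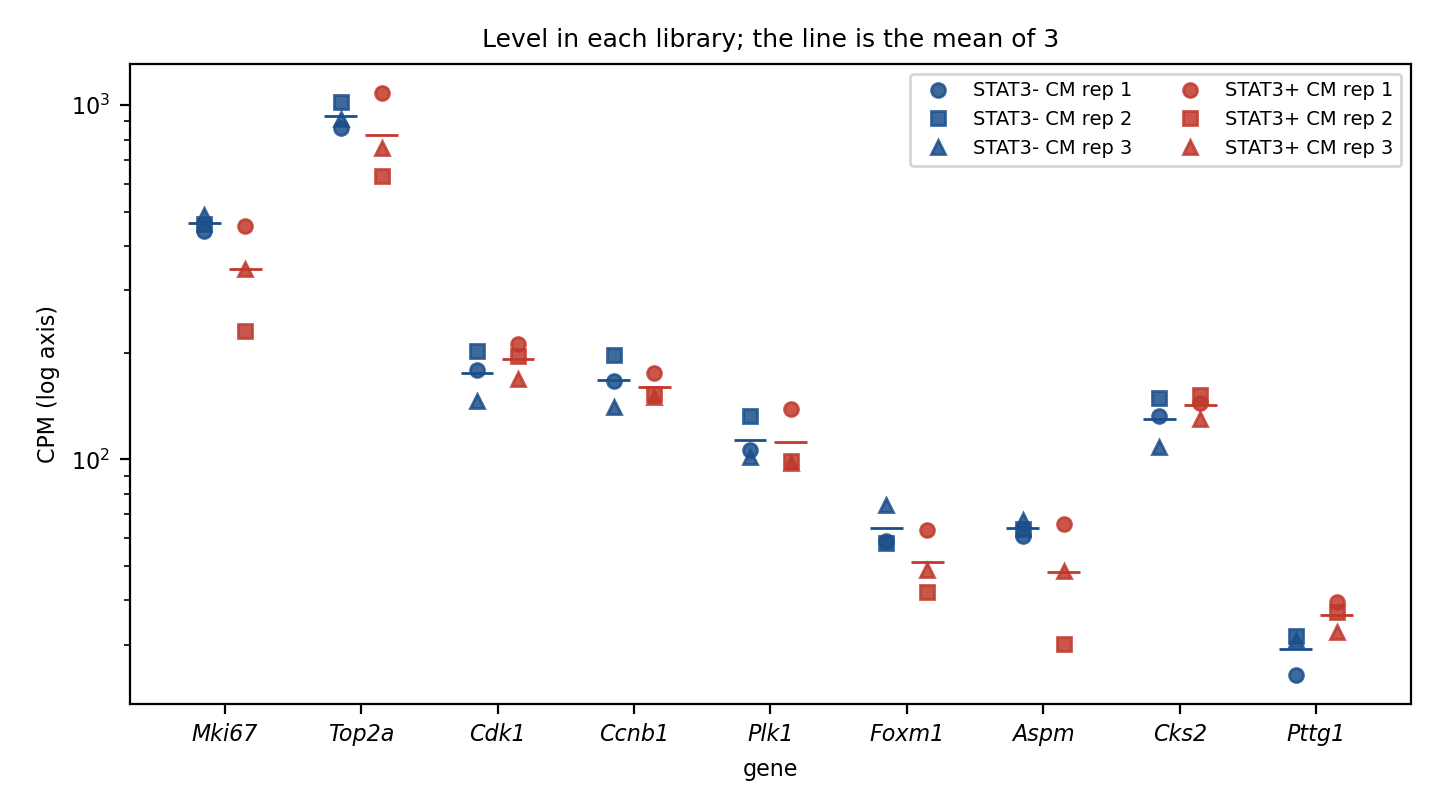
CPM (log axis) of 9 mitotic genes in each library, in blue for STAT3- CM and red for STAT3+ CM, with the replicate given by the symbol and the mean of 3 by a line. Pttg1 is the only gene whose groups do not overlap, and for Mki67 and Aspm the spread lies mostly in STAT3+ CM, from 231 to 457 CPM and from 30.2 to 65.8 CPM.

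The chromosomal passenger complex joins the kinase Aurkb to its scaffold Incenp and to Birc5 (survivin) and Cdca8 (borealin), and corrects faulty attachments of chromosomes to the spindle. Aurkb stood at 115, 129.8 and 137 CPM in STAT3- CM and at 157, 109.7 and 114 CPM in STAT3+ CM, and Incenp at 178, 187 and 179 CPM in STAT3- CM and at 203, 136 and 147 CPM in STAT3+ CM. For both, STAT3+ CM replicate 1 was above and replicates 2 and 3 below every STAT3- CM library. Birc5 stood at 149.8, 176 and 134 CPM in STAT3- CM and at 172, 166 and 132 CPM in STAT3+ CM, with STAT3- CM replicate 2 highest. The log2 fold changes ran from -0.16 (SE 0.16) for Incenp to 0.032 (SE 0.15) for Birc5, and 2 of the 4 were below 0.

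The spindle checkpoint delays anaphase until all chromosomes are attached. Its kinases Bub1 and Ttk, the kinase-like inhibitor Bub1b and the inhibitor Mad2l1 were measured. Bub1b stood at 148, 175 and 172 CPM in STAT3- CM and at 192, 109 and 139 CPM in STAT3+ CM, with means of 165 ± 15.1 against 147 ± 42.2 CPM (SD, n = 3 each) and a log2 fold change of -0.17 (SE 0.19). Mad2l1 stood at 178, 197 and 184 CPM in STAT3- CM and at 221, 186 and 160.2 CPM in STAT3+ CM, with 0.022 (SE 0.14). Bub1, Bub1b and Ttk shared the order with STAT3+ CM replicate 1 above and replicates 2 and 3 below all STAT3- CM libraries, and Mad2l1 lacked it because replicate 2 was within their range.

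Kinetochores, the protein plates that bind microtubules, were represented by 7 genes. Cenpf, a large protein of the outer kinetochore, stood at 76.3, 80.5 and 84.2 CPM in STAT3- CM and at 84.7, 43.8 and 63.5 CPM in STAT3+ CM. Cenpe, a kinesin that carries chromosomes to the spindle equator, stood at 109, 131 and 119 CPM in STAT3- CM and at 126, 71.3 and 102 CPM in STAT3+ CM. In both genes STAT3+ CM replicate 2 was far below the rest, and the log2 fold changes were -0.33 (SE 0.20) and -0.27 (SE 0.19). Cenpa, the histone H3 variant that marks centromeres, stood at 165, 173 and 235 CPM in STAT3- CM and at 237, 199 and 178 CPM in STAT3+ CM. Its lowest library was STAT3- CM replicate 1 and its value 0.10 (SE 0.17), the highest of the 7. Ndc80, Nuf2 and Spc25, subunits of the complex that grips microtubules, had -0.15 (SE 0.15), -0.091 (SE 0.14) and 0.021 (SE 0.12). Sgo1, which guards centromeric cohesion, had -0.059 (SE 0.13) and one of the narrowest spreads, 1.2-fold between the highest and lowest library.

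All 9 kinesin motors had values below 0, from -0.32 (SE 0.19) for Kif14 to -0.040 (SE 0.14) for Kif22. Kif11, the motor that pushes spindle poles apart, had the highest level of the 9 per kilobase of transcript (54.7 CPM per kb in STAT3- CM) and stood at 243, 259 and 288 CPM in STAT3- CM and at 299, 179 and 207 CPM in STAT3+ CM. Kif14, which acts in cytokinesis, stood at 31.1, 35.1 and 38.3 CPM in STAT3- CM and at 36.0, 20.5 and 27.3 CPM in STAT3+ CM. Kif20a, a motor of the central spindle, stood at 145, 167 and 117 CPM in STAT3- CM and at 154, 117 and 119 CPM in STAT3+ CM. Kif11 had STAT3+ CM replicate 1 on top and replicates 2 and 3 at the bottom, Kif14 had the same 2 at the bottom, and for Kif20a STAT3- CM replicate 3 lay among the low libraries. Replicates 2 and 3 of STAT3+ CM were both below every STAT3- CM library for 7 of the 9. Kif23, a subunit of centralspindlin, had -0.14 (SE 0.17), and Kif4, a chromosome-bound motor, -0.23 (SE 0.16). Kif2c, which takes microtubules apart at centromeres, had -0.15 (SE 0.14), Kif15, a spindle motor that works beside Kif11, -0.16 (SE 0.16), and Kif18b, which shortens astral microtubules, -0.17 (SE 0.15).

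The 9 proteins of spindle microtubules were also all below 0. Aspm, which focuses spindle poles, stood at 60.9, 63.7 and 67.6 CPM in STAT3- CM and at 65.8, 30.2 and 48.3 CPM in STAT3+ CM. Its highest and lowest libraries differed 2.24-fold, the widest spread of the 55, with STAT3+ CM replicate 2 the lowest and replicate 3 next. The means were 64.1 ± 3.35 against 48.1 ± 17.8 CPM (SD, n = 3 each) and the log2 fold change -0.41 (SE 0.23). Tpx2, which activates Aurka and seeds microtubules, stood at 181, 222 and 192 CPM in STAT3- CM and at 239, 151 and 163 CPM in STAT3+ CM (log2 fold change -0.11, SE 0.18). Prc1, which bundles the central spindle, stood at 109, 127 and 96.7 CPM in STAT3- CM and at 130.2, 74.5 and 81.6 CPM in STAT3+ CM (log2 fold change -0.22, SE 0.21). Both had STAT3+ CM replicate 1 highest and replicates 2 and 3 lowest, as did 7 of these 9 genes. Nusap1, which links microtubules to chromosomes, Hmmr and Dlgap5, which build the spindle, and Ckap2, Ckap2l and Troap, which bind microtubules, made up the rest, from -0.25 (SE 0.19) for Ckap2l to -0.022 (SE 0.19) for Nusap1.

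Cytokinesis was covered by Anln, a scaffold of the contractile ring, Ect2, which activates RhoA there, and Racgap1, the partner of Kif23 in centralspindlin. Anln stood at 34.4, 38.1 and 36.6 CPM in STAT3- CM and at 40.9, 23.2 and 27.9 CPM in STAT3+ CM, and Racgap1 at 145, 157 and 159 CPM in STAT3- CM and at 198, 119 and 124 CPM in STAT3+ CM. In each of the 3 genes, STAT3+ CM replicate 1 was above and replicates 2 and 3 below every STAT3- CM library. Log2 fold changes were -0.25 (SE 0.19) for Anln, -0.16 (SE 0.16) for Ect2 and -0.067 (SE 0.19) for Racgap1.

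Among the genes of anaphase and mitotic exit, Pttg1 was the one whose groups did not overlap. It encodes securin, the inhibitor that holds separase until anaphase, and stood at 24.6, 31.7 and 30.9 CPM in STAT3- CM and at 39.5, 37.1 and 32.6 CPM in STAT3+ CM. Every STAT3+ CM library was above every STAT3- CM library, with means of 29.1 ± 3.88 against 36.4 ± 3.49 CPM (SD, n = 3 each). Its log2 fold change was 0.32 (SE 0.14), with an unadjusted edgeR p of 0.0481 and an adjusted p of 0.989. The range over all libraries was 1.6-fold. Espl1, separase itself, stood at 70.4, 76.7 and 88.0 CPM in STAT3- CM and at 80.9, 53.1 and 69.6 CPM in STAT3+ CM, with the opposite sign (log2 fold change -0.21, SE 0.16) and overlapping groups. Cdc20, the activator of the anaphase-promoting complex, stood at 171, 191 and 129.8 CPM in STAT3- CM and at 165, 158 and 137 CPM in STAT3+ CM (log2 fold change -0.094, SE 0.16). Ube2c, the ubiquitin-conjugating enzyme of that complex, stood at 158, 176 and 150.5 CPM in STAT3- CM and at 205, 163 and 136 CPM in STAT3+ CM (log2 fold change 0.058, SE 0.16). STAT3- CM replicate 2 was the highest library for Cdc20 and STAT3+ CM replicate 1 for Ube2c. Cdca3, which helps to destroy the Cdk1 inhibitor Wee1, stood at 88.3, 100.3 and 98.8 CPM in STAT3- CM and at 115, 93.4 and 78.9 CPM in STAT3+ CM, with a log2 fold change of -0.0013 (SE 0.15) and, again, STAT3+ CM replicates 1 and 3 at the top and bottom.

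Mki67 and Top2a are the usual markers of proliferation. Mki67, which coats mitotic chromosomes, stood at 441, 462 and 490.4 CPM in STAT3- CM and at 457, 231 and 344 CPM in STAT3+ CM. Replicates 2 and 3 of STAT3+ CM were below every STAT3- CM library and replicate 1 was among them, so the groups overlapped. The means were 464 ± 24.8 against 344 ± 113 CPM (SD, n = 3 each), and the log2 fold change -0.43 (SE 0.21) was the most negative of the 55, with an adjusted p of 0.989 (edgeR quasi-likelihood test). Top2a, the topoisomerase that untangles sister chromosomes, stood at 863, 1019 and 915 CPM in STAT3- CM and at 1082, 630.2 and 755 CPM in STAT3+ CM. STAT3+ CM replicate 1 was above and replicates 2 and 3 below all STAT3- CM libraries, and the log2 fold change was -0.18 (SE 0.19). Per kilobase of transcript, the STAT3- CM mean was highest for Cks2 (188 CPM per kb), Top2a (179), Ube2c (167), Birc5 (162) and Cenpa (130.3) and lowest for Cenpf (7.22), Aspm (6.49) and Kif14 (3.90).

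The libraries of STAT3+ CM lay at both ends of the order. Relative to each gene's mean over 6 libraries, their median log2 level was -0.0095, 0.18 and 0.052 in STAT3- CM replicates 1 to 3. In STAT3+ CM it was 0.26 in replicate 1, -0.28 in replicate 2 and -0.19 in replicate 3. STAT3+ CM replicate 1 was thus at the top and the other STAT3+ CM libraries at the bottom, with all STAT3- CM libraries between, and the share of all counts taken by the 55 genes followed, at 0.785% in STAT3+ CM replicate 1 and 0.546% in replicate 2. STAT3+ CM replicate 1 was the highest library for 36 of the 55 genes, replicate 2 the lowest for 31 and replicate 3 the lowest for 15. For 27 genes (49.1%, against 2.48% of all genes) replicate 1 was above and replicates 2 and 3 below every STAT3- CM library. Replicate 1 exceeded replicate 2 in 53 of 55, with a median of 1.44-fold, where 51.9% of all genes did. The range within STAT3+ CM was larger than within STAT3- CM for 43 of 55, against 53% of all genes. The heat map by library shows this order in most roles, but it held for only 4 of the 12 entry genes. For the 5 genes of anaphase and mitotic exit it held for 0, and Pttg1, Cks2 and Cdk1 were among the exceptions.

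**Figure D3:**
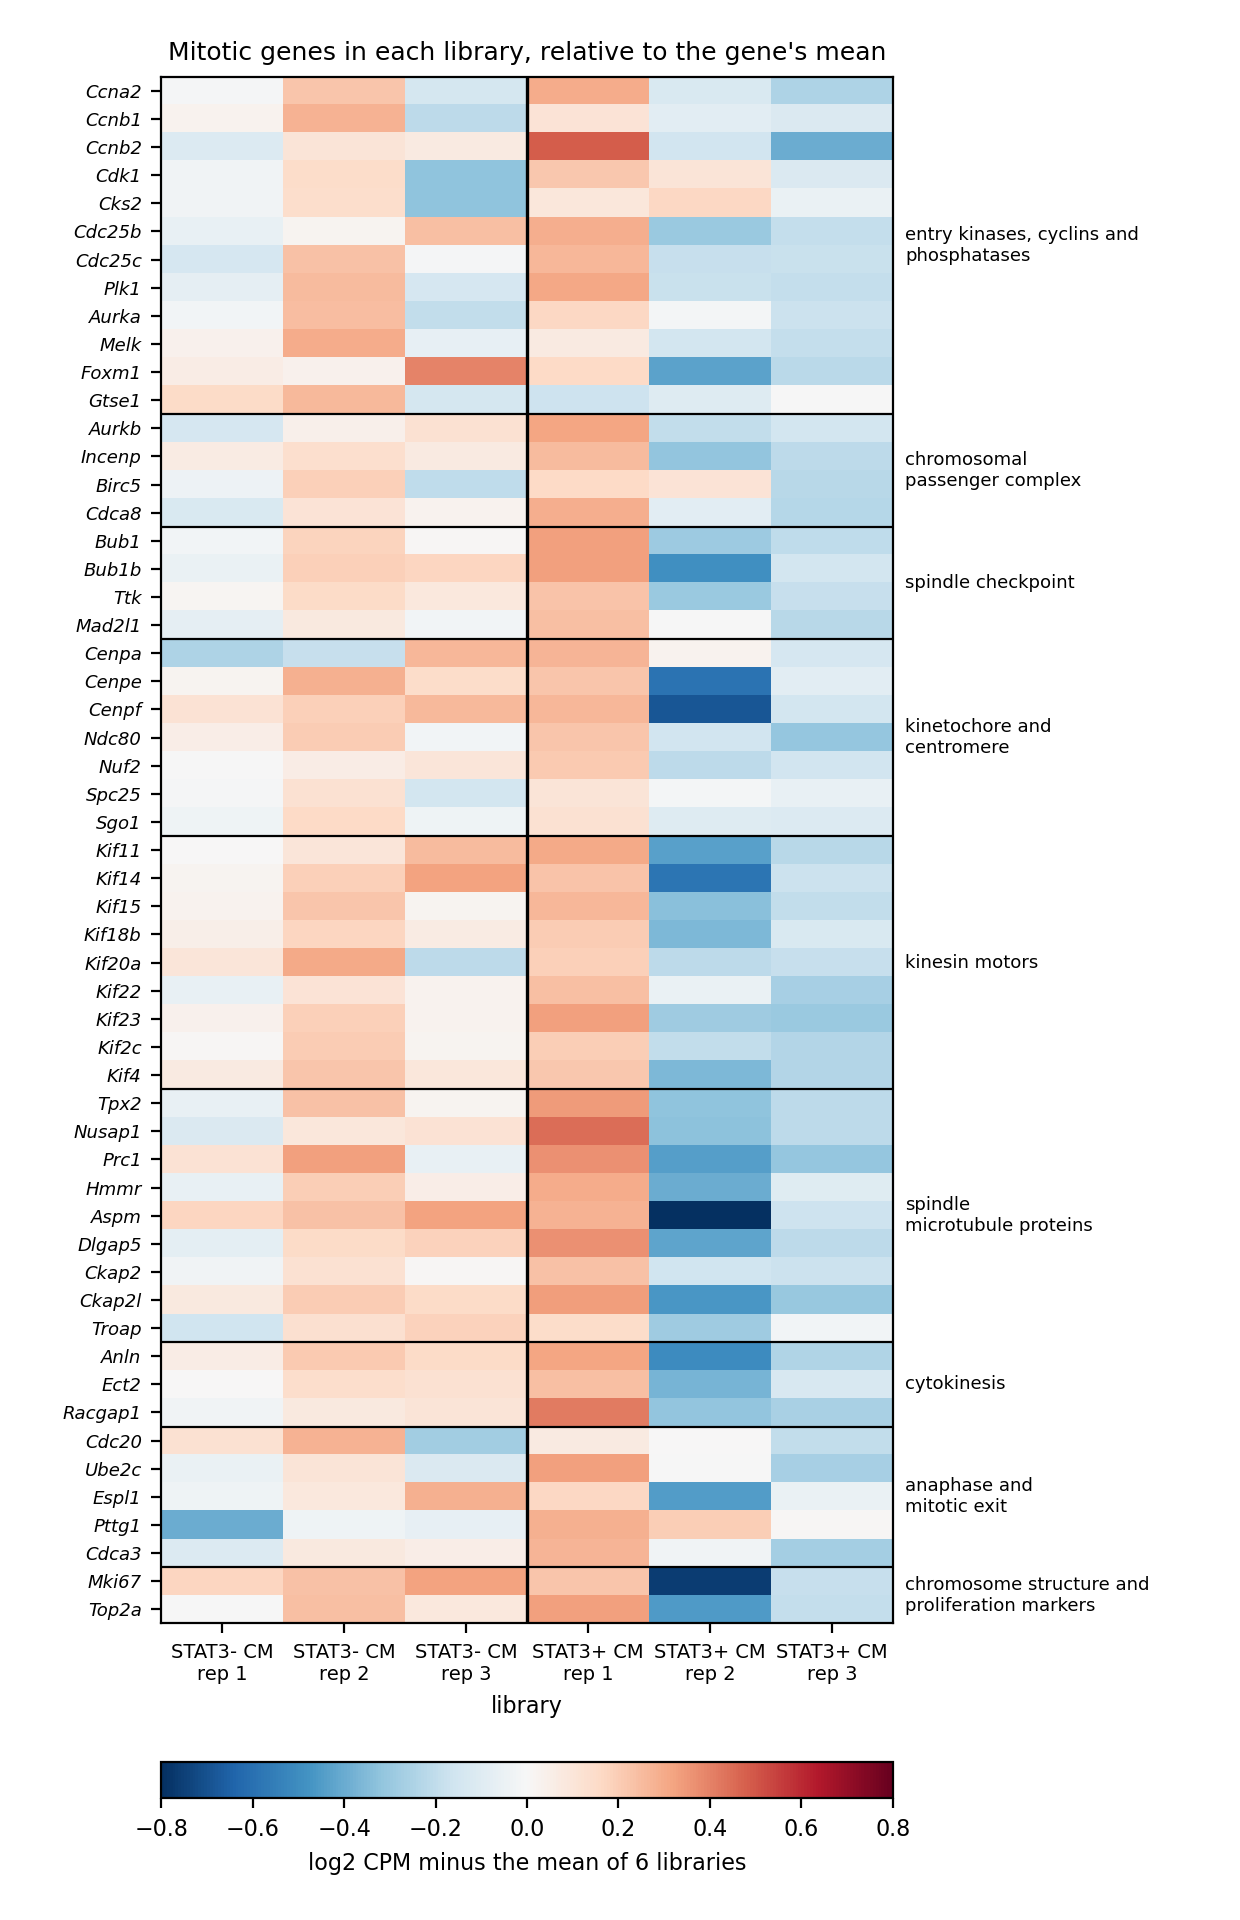
Log2 CPM of each mitotic gene in each library minus the gene's mean over 6 libraries (colour scale, red above and blue below), with rows ordered by role. The STAT3+ CM replicate 1 column is red for nearly every gene (median 0.26), and replicates 2 and 3 are mostly blue (medians -0.28 and -0.19).

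The size of the difference between media depended on which libraries entered, and on STAT3+ CM replicate 1 most of all. Without STAT3+ CM replicate 1, 37 of the 55 genes (67.3%) had both remaining STAT3+ CM libraries below all STAT3- CM libraries, against 9.48% of all genes. At an unadjusted edgeR p under 0.05, 22 (40%) were lower in STAT3+ CM, against 2.42% of all genes. The median log2 fold change was then -0.30, against -0.0068 for all genes. Of the 55, 52 were below 0, and Mki67 had -0.69, Aspm -0.70 and Ckap2l -0.53. Even so, 0 of the 55 passed adjustment over all genes, with a smallest adjusted p of 0.9997 in edgeR. The counts without replicate 1 restate the order of libraries above, in which the same genes set that library apart. They are no separate test of the media, and genes that share the same libraries are not replicates. Among the 22 were all 3 cytokinesis genes, 6 of the 9 kinesins (Kif4, Kif11, Kif14, Kif15, Kif18b and Kif23) and both Mki67 and Top2a, and none of the anaphase genes. These roles also differ in transcript length, at 2933 to 4605 bases for cytokinesis, 2115 to 8943 for kinesins and 5221 and 10061 for Top2a and Mki67. The anaphase genes have 741 to 1976 bases except Espl1 (6658 bases, log2 fold change -0.35 here). A difference by role apart from length was not tested. Without STAT3+ CM replicate 2, the median was -0.019 and 32 of 55 were below 0, and without replicate 3 it was -0.038 with 35 below 0. Leaving out STAT3- CM replicates 1, 2 and 3 in turn gave medians of -0.16, -0.069 and -0.12. No label gives a reason to leave any library out.

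Within the 55, the difference between media went with transcript length. The 14 genes with transcripts under 2000 bases had a median log2 fold change of 0.012 and 5 below 0. The 26 genes of 2000 to 4000 bases had -0.12, with all 26 below 0, and the 15 longer ones -0.23, with 14 below 0. Across the 55 genes Spearman's rho of log2 fold change with length was -0.81. With the longest coding transcript of each gene it was -0.682. All genes had medians of 0.096, -0.0050 and -0.11 in the same classes. Below 0 were 1507 of 5006, 2736 of 5351 and 2742 of 3613 of them. Their rho was -0.384 over 13970 genes, or -0.387 with the longest coding transcript. These correlations are across genes that share the same 6 libraries, so genes are not replicates. Mki67, Aspm and Cenpf, the most negative 3 genes, have transcripts of 10061, 9867 and 11130 bases. Pttg1 and Cks2, the highest, have 741 and 692 bases. Cdk1, next highest at 0.13, has 4375 bases and was the exception above 0 in the longest class. The trend was steepest in STAT3+ CM replicate 2, where rho of the gene's deviation with length was -0.839 in the 55 and -0.488 over all genes. In STAT3+ CM replicate 1 these were 0.0989 and -0.157, and in replicate 3 of the same medium 0.0586 and 0.243. In STAT3- CM replicates 1 to 3 they were 0.521, 0.299 and 0.545 in the 55, and 0.192, 0.0862 and 0.214 over all genes.

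With each library's length trend over all genes removed, Mki67 had -0.23, Cenpf -0.11, Aspm -0.22 and Pttg1 0.19, and the Pttg1 groups overlapped. Below 0 were then 52 of the 55, with a median of -0.096 against 0.0041 for all genes, and Cdk1, Cenpa and Pttg1 were above 0. The order of libraries remained, with medians of 0.25 in STAT3+ CM replicate 1, -0.21 in replicate 2 and -0.20 in replicate 3, against -0.035, 0.19 and 0.028 in STAT3- CM. STAT3+ CM replicate 1 was then highest for 39 genes, and replicates 2 and 3 lowest for 25 and 22. The log2 fold changes then ran from -0.23 (Mki67) to 0.20 (Cdk1), and edgeR called 0 genes, with 514 genes and 0 of the 55 at an unadjusted p under 0.05.

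**Figure D4:**
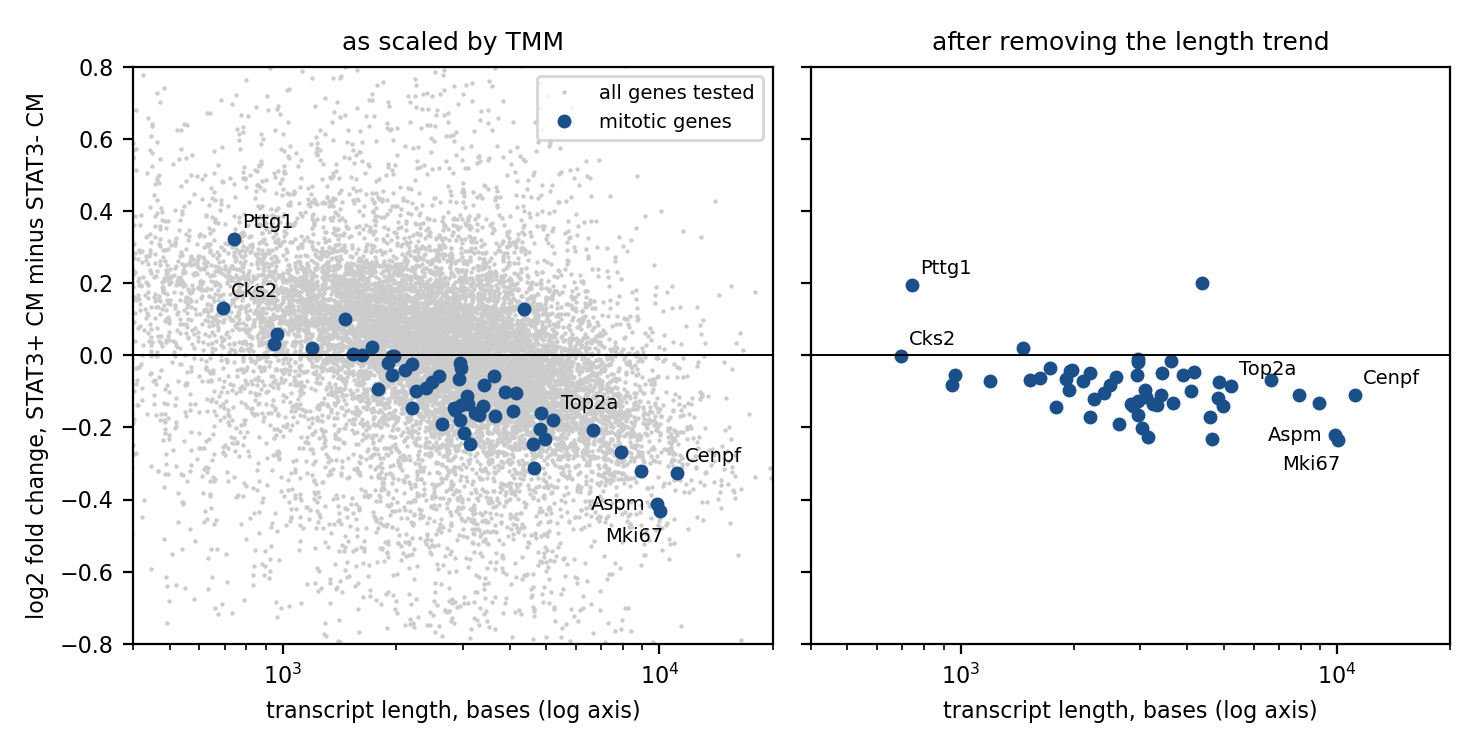
Log2 fold change (y axis, STAT3+ CM minus STAT3- CM) against transcript length (x axis, log scale) for the mitotic genes in blue, before (left) and after (right) each library's length trend was removed, with all genes tested in grey on the left and values beyond the axis not drawn. On the left the blue points descend from Pttg1 (0.32) to Mki67 (-0.43), and on the right Mki67 lies at -0.23.

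Other cell cycle genes were read for comparison. Of 78 further mitotic genes (condensins, other kinetochore and spindle proteins, and the anaphase-promoting complex with its regulators), 0 were called by edgeR, 0 had an unadjusted p under 0.05, 54 were below 0 and the median was -0.064. The 12 condensin and cohesin genes came closest to the 55, with 11 below 0 and a median of -0.13. Their library medians were 0.26 in STAT3+ CM replicate 1 and -0.34 in replicate 2. For the 39 other kinetochore and spindle genes these were 0.16 and -0.083. For the 27 genes of the anaphase-promoting complex, entry control and cytokinesis they were 0.083 and -0.072. The order with replicate 1 above and replicates 2 and 3 below all STAT3- CM libraries held for 17 of the 78, against 2.48% of all genes. Of 40 genes of G1/S and DNA replication, 0 were called by edgeR, 0 had an unadjusted p under 0.05, 24 were above 0, and the median was 0.021. Their library median was 0.16 in STAT3+ CM replicate 1, and -0.12 in replicate 3, as for mitotic genes above and below all STAT3- CM libraries, and -0.00079 in replicate 2, within their range. Of 21 measured DREAM, MuvB and E2F genes, 14 were below 0 (median -0.067), among them E2f8, which with E2f7 represses the cell cycle programme, at -0.33 and E2f7 at -0.31. Of 17 inhibitors and quiescence genes, Cdkn2a stood at 4.33, 3.15 and 1.56 CPM in STAT3- CM and at 1.30, 1.32 and 0.921 CPM in STAT3+ CM. Its groups did not overlap, its log2 fold change was -1.37, and like the rest of that list it was not called by edgeR, although 2 of the 17 (11.8%) were lower at an unadjusted p under 0.05, against 2.3% of all genes. Groups that did not overlap, with lower values in STAT3+ CM, were also found for 2 of the 17, against 4.18%. Differences between these lists and the 55 genes were not tested.

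**Figure D5:**
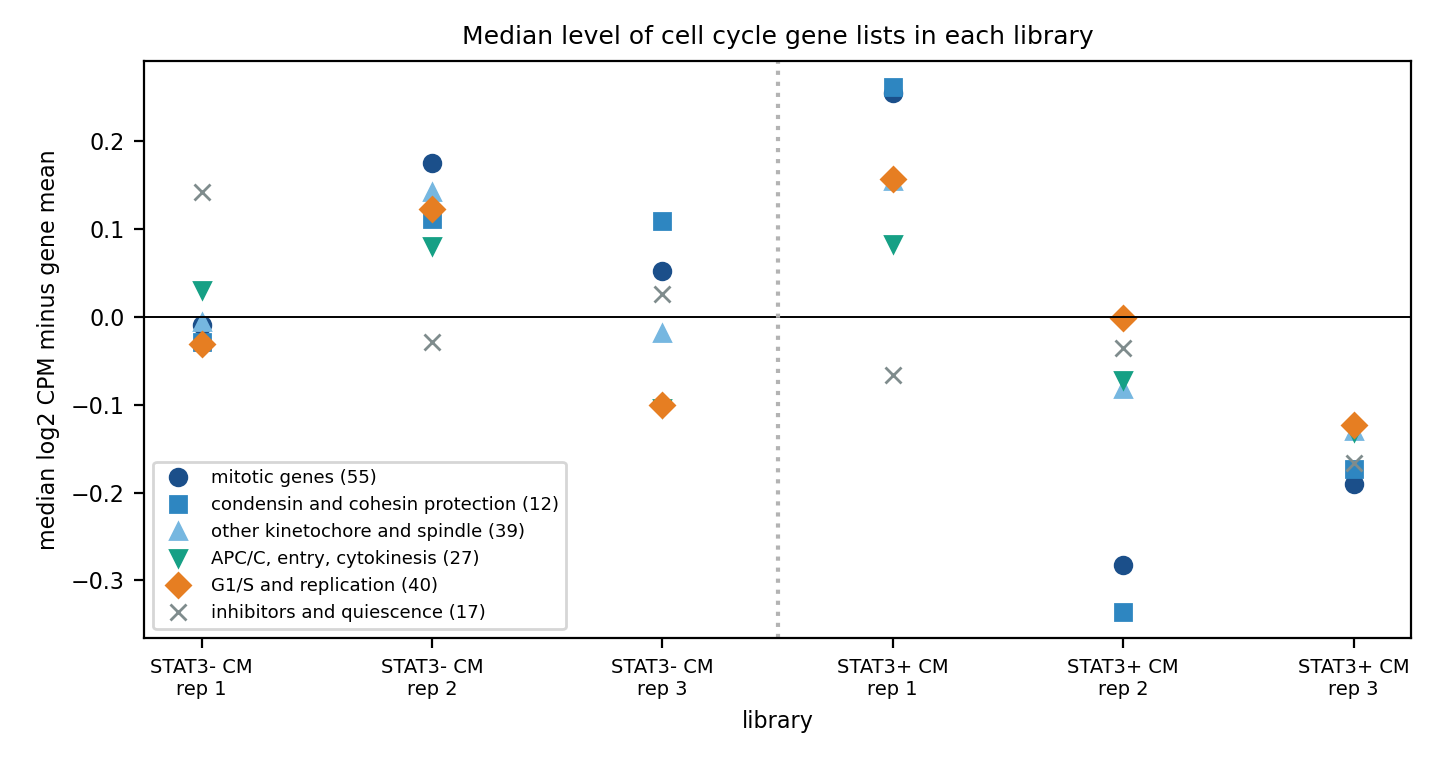
Median over each gene list (number of genes in the key) of log2 CPM minus the gene's mean over 6 libraries (y axis), by library (x axis). Mitotic genes and condensins reach 0.26 in STAT3+ CM replicate 1 and -0.28 and -0.34 in replicate 2. In that replicate the other kinetochore and spindle list lies at -0.083, the APC/C list at -0.072 and the G1/S list at -0.00079.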

How the data were processed

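The authors deposited a table of unnormalized counts, with 1 row per gene and 1 column for each of the 6 libraries of polyadenylated RNA. The libraries were directional and started from 500 ng of RNA with a mean quality score of 9.4, per the labels. The tools named, per the submitters' processing notes, are TopHat2 2.0.10, Bowtie 1.0.0, Cufflinks 2.2.1, SAMtools 0.1.19, FastQC and, as genome build, GRCm39. How reads were assigned to genes (program, annotation, strand) is not given in the sources used here, which leaves genes that overlap on opposite strands uncertain. The table lists genes with at least 40 counts over the 6 libraries.

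Groups came from sample titles. Counts were filtered with filterByExpr (14319 genes kept, 162 left out), scaled by TMM and compared with edgeR 4.0.16 (R 4.3.3) with its robust quasi-likelihood test over all genes, two-sided, with Benjamini-Hochberg adjustment and a threshold of 0.05. The SE is that of the log2 fold change. Log2 CPM used a prior count of 2. DESeq2 1.42.0 and limma 3.58.1, other scalings and filters, removal of length or GC trends, and leaving out libraries were the alternatives. Removal of the trends and of 2 libraries together was added after the data had been seen. Transcript lengths came from a GRCm38 annotation matched by symbol (13970 genes), 1 principal transcript per gene. Promoter letters came from RefSeq on GRCm38.p6, not the submitters' build, and were joined by symbol. No 2 libraries agreed within sampling noise, and the workflow was tested on simulated data.

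All 55 genes could be named. From each other list the 4 genes with the smallest p, and all CD8+ T cell markers, could be. The rule for the 55 uses no measured value, but the members and lists were chosen with earlier results of these data known. Member counts per library were 641 to 49115, so that library spread and not counting error limits the precision.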

Additional observations from a re-analysis of the deposited data

How the results depend on the processing

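In all 19 alternatives 0 of the 55 mitotic genes were called. Over all genes edgeR called 0, DESeq2 48 and limma-voom with sample quality weights 16. Leaving out 1 library at a time gave 0 to 18 called genes, the 18 without STAT3- CM replicate 3 and 1 without STAT3- CM replicate 1. With the pair of libraries STAT3+ CM replicate 1 and STAT3- CM replicate 3 left out, 10 genes were called, and the smallest adjusted p of a mitotic gene was 0.22 (edgeR). The mitotic genes whose groups did not overlap, 1 with all libraries, numbered 3 when scaled by library totals only, 0 after removal of the transcript length trend, 45 with both those libraries left out (43 lower in STAT3+ CM), and 1 to 38 with 1 library left out, the 38 without STAT3+ CM replicate 1. With 2 libraries in a group, fewer orders are possible. Of all genes, 7.95% did not overlap with all libraries and 35.3% with both those libraries left out. With 1 library left out the share of all genes was 11.3% to 28%, and 17.5% without STAT3+ CM replicate 1. The cause of these changes, beyond fewer libraries, was not tested.

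The median log2 fold change of the 55 was -0.30 to -0.019 with 1 library left out and -0.31 with both left out. Library totals only moved the median of all genes to -0.042 and that of the 55 to -0.15. The sign of 28 genes changed in at least 1 alternative, all with a log2 fold change of at most 0.17 in size, and 27 kept theirs, 26 below 0 and Pttg1 above.

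The labels do not say whether equal replicate numbers pair the libraries. After group means were removed, equal numbers correlated at -0.261, 0.281 and 0.182 across genes. STAT3- CM replicate 1 correlated best with STAT3+ CM replicate 2 (0.423). With 3 libraries per group these correlations cannot decide whether the libraries are paired. With the replicate block, edgeR called 0 genes, and the median of the 55 was -0.13.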
